A study of Mus musculus with 4 samples.

Results

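The heat shock protein genes described here are Hspa1a, Hspa1b, Hsph1, Dnajb1, Hspe1, Hspd1, Hsp90aa1, Hspb1, Hspa8 and Bag3. Most are inducible chaperones of the mouse cytosol or their partners. A gene was taken as measured when a probe on the array carried a RefSeq transcript accession of that symbol. Of the 10 genes listed, 9 were measured, through 14 of 39429 probes, and they stand among 20144 genes named in this way. No probe matched Hspa1b, which was not analysed here beyond its promoter. Hspd1 and Hspe1 encode the chaperonin of the mitochondrial matrix and Hspa8 a constitutive HSP70, so the 9 measured genes are not all cytosolic or all inducible.

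The study asked what Aff3, a member of the AF4/FMR2 family of transcription elongation factors, contributes to gene expression in activated B cells. CD43-negative B cells were taken from the spleens of Aff3+/- or Aff3-/- mice, so the comparison group carries 1 working copy of the gene and no wild-type group was analysed. Both genotypes were cultured for 3 days with the TLR4 ligand LPS (10 ug/mL) and the T cell cytokine IL-4 (10 ng/mL). Each genotype had 2 replicates, and each RNA was labelled with Cy3 and hybridised to its own array. The sources used here give no age, sex or strain, and leave unsaid whether the replicates are separate animals, so every p-value measures only the spread between these samples, which may be technical.

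Heat shock proteins are chaperones that hold or refold proteins that have lost their shape. HSP70 proteins bind exposed stretches of a client with ATP, J proteins hand clients to them, nucleotide exchange factors release them, and HSP90 completes the folding of kinases and receptors. Most of these genes are induced by the heat shock factor HSF1, which binds promoters at heat shock elements, runs of GAA units in alternating orientation. B cells driven to divide and secrete antibody raise their rate of protein synthesis, which loads this machinery.

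The promoter letters for this factor are shown because the members differ in them. In the 250 bases before each RefSeq start (GRCm38.p6), pairs of units were searched head to head (GAANNTTC) and tail to tail (TTCNNGAA). Each pattern is its own reverse complement, so 1 search covers both strands, and neighbouring pairs in a run overlap. Only exact GAA and TTC letters were searched, so units with a mismatch were missed and an element may be longer than its match. Windows were listed for 8 of the 10 genes, and 6 of those 8 held at least 1 pair, against 14.5% of all 27025 genes listed. GAANNTTC lay in 5 of the 8 and in 7.73% of all genes, or 6.69% of all 32851 windows of this length. TTCNNGAA lay in 3 of the 8 and in 8.11% of all genes, or 7.17% of all windows. A run of 3 units lay in 2 of the 8, Hspd1 and Hspe1, and in 0.514% of all genes, or 0.466% of all windows.

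Whole windows of 3 genes and 30-base stretches of another 2 are printed 5′ to 3′ on the strand of the gene, with the matches in capitals. The Hspb1 window lies at chr5:135887669-135887918 on the plus strand, Hspa1b at chr17:34959239-34959488 and Hspa1a at chr17:34972157-34972406, both on the minus strand. The Hsph1 stretch is chr5:149636351-149636380 on the minus strand, and the Hspe1 stretch is chr1:55088053-55088082 on the plus strand.
Hspb1: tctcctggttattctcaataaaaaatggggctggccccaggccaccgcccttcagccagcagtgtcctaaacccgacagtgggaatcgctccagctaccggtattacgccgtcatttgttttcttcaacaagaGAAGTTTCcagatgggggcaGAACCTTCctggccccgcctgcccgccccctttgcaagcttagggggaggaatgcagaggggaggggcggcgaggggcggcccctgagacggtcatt
Hspa1b: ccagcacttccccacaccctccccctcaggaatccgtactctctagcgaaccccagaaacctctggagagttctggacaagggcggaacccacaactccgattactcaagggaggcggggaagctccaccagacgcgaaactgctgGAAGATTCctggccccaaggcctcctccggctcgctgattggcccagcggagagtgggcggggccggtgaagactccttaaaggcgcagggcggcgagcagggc
Hspa1a: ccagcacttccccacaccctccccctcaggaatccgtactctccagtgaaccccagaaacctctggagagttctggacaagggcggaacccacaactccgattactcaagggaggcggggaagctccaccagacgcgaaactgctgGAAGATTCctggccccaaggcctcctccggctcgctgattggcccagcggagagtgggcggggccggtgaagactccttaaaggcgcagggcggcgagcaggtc
Hsph1: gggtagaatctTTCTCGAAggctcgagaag
Hspe1: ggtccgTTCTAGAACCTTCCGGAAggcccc

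Hspa1a and Hspa1b, neighbouring copies of the inducible HSP70 gene, differed at 3 of these 250 bases and shared their single match, at positions -104 to -97 from the start. Hspb1 held 2 matches, at positions -117 to -110 and -97 to -90. The Hsph1 match lay at -33 to -26 from 1 listed start and at -54 to -47 from the other. Hspe1 and Hspd1 are transcribed away from each other, and the same 18 bases, chr1:55088059-55088076, fell in the windows of both, at -89 to -72 from the Hspe1 start and at -144 to -127 from 1 of 2 Hspd1 starts. No match lay in the windows of Bag3, of either Dnajb1 start or of the other Hspd1 start. Hspa8 and Hsp90aa1 are named only. A match is a description of letters and was not set against binding data.

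**Figure D1:**
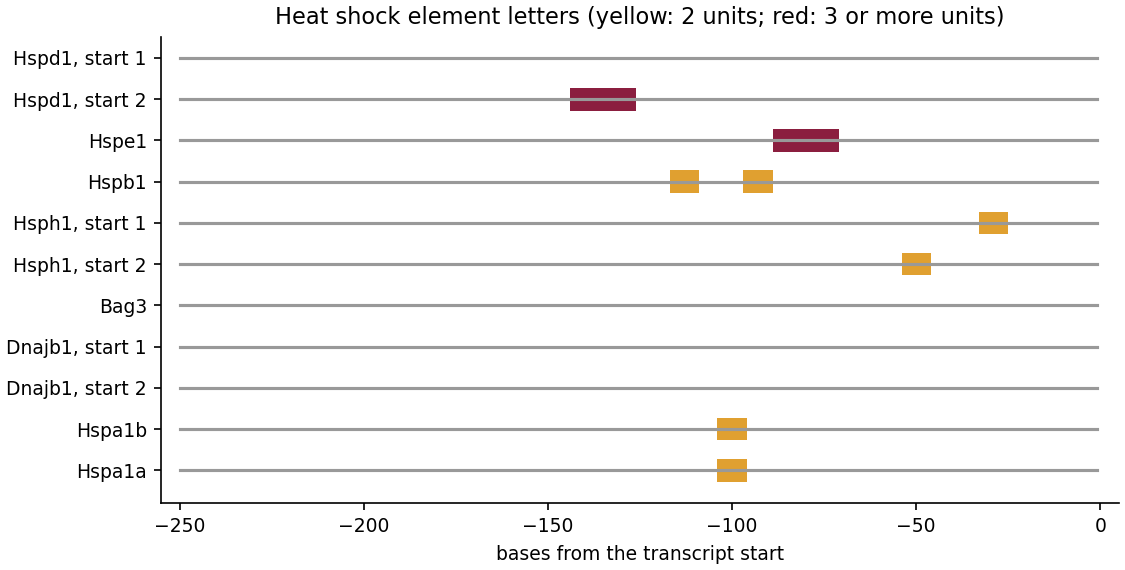
Position of exact heat shock element letters in the 250 bases before each listed transcript start, in bases from the start. Yellow blocks mark 2 units and red blocks runs of 3 or more, and units with a mismatch were not searched. The red blocks in Hspd1 and Hspe1 are the same 18 bases read from opposite strands, and the Bag3 and Dnajb1 windows hold no exact match.

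Expression is given as the log2 of the processed signal minus the array's 75th percentile, so 0 marks a spot as bright as that percentile. Values of different genes come from different probes and were not set against each other. All 14 probes were well above background on all 4 arrays and none was saturated. Across the arrays 24946 to 25868 probes were well above background, and the 75th percentile lay between 1274 and 1351 intensity units. In a limma fit over 20636 features, 0 of 9 members and 0% of all features passed an adjusted p of 0.05. All 9 adjusted p-values were 1.00, and the smallest over all features was 0.736. At an unadjusted p under 0.05 the count was 0 of 9, against 2.04% of all features. The smallest unadjusted p of a member was 0.158, for Hspb1.

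The fitted difference, Aff3-/- minus Aff3+/-, was above 0 for 7 members and below 0 for 2, where 45.7% of all features were above 0, with a median of 0.06 on the log2 scale against -0.01 over all features. This balance rested on single arrays. Without Aff3-/- replicate 2 only 2 of 9 differences were above 0 and the median was -0.15, and without Aff3+/- replicate 1 these were 4 and -0.07. In no member did both Aff3-/- arrays lie above both Aff3+/- arrays, a pattern seen in 8.44% of all features. In 2 members, Hspb1 and Hspa8, both lay below, against 11.1% of all features. Hspb1 was the single one of these without overlap when normexp replaced the background correction or a gene's probes were averaged.

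**Figure D2:**
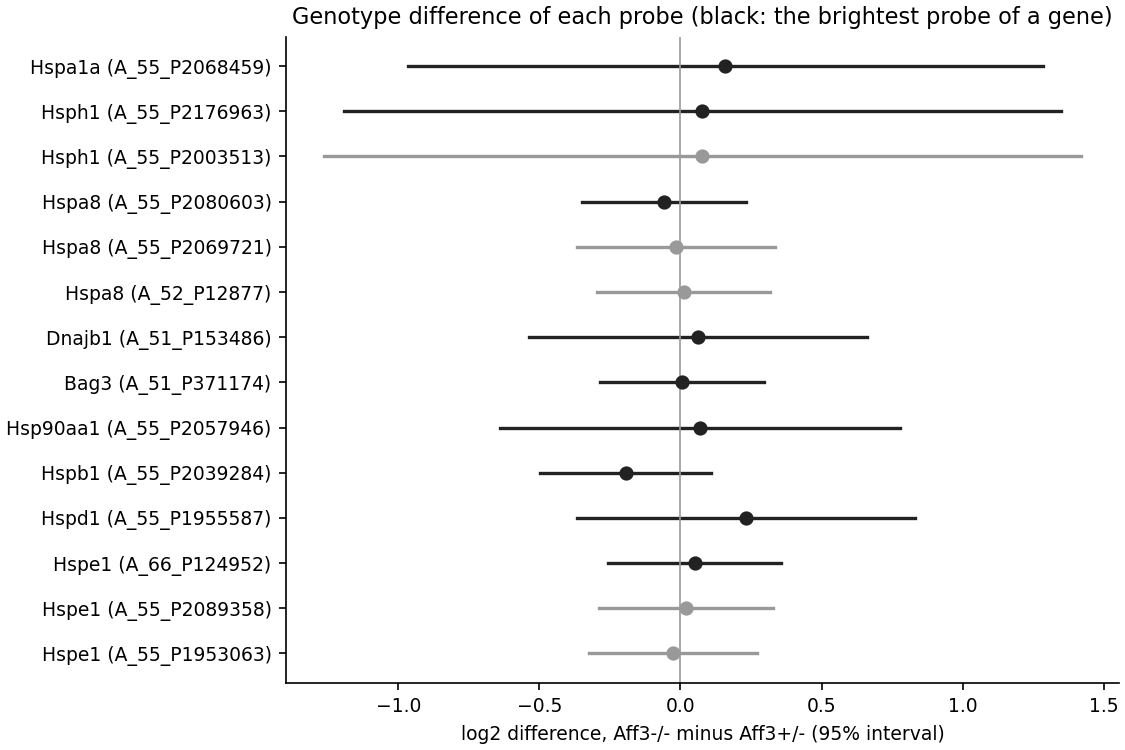
Genotype difference of each of the 14 probes on the log2 scale, Aff3-/- minus Aff3+/- (2 arrays each), with 95% intervals from a limma fit of every probe on its own. Black marks the brightest probe of a gene, which stands for it elsewhere, and grey its other probes. All 14 intervals cross 0, and those of Hspa1a and Hsph1 are the widest of the 9 genes.

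The 4 arrays differed in how they ordered the members. Aff3-/- replicate 1 held the lowest value of 5 of the 9 members and Aff3-/- replicate 2 the highest of 6, while over all features these shares were 26.2% and 28.3%. Hspa1a, Hsph1, Dnajb1, Hsp90aa1 and Bag3 were lowest on the former and highest on the latter, an order held by 14.2% of all features. For Bag3 the former and the latter lay only 0.04 apart. In 5 members, Hspa1a, Hsph1, Dnajb1, Hspd1 and Hsp90aa1, both replicate 2 arrays lay above both replicate 1 arrays, against 30.8% of all features. The reverse held for 1 member, Hspe1 on its brightest probe, against 33.5% of all features. Of the 14 member probes, 8 had both replicate 2 arrays above and 1 had them below. The counts of highest values, of the joint lowest and highest order, and by replicate number were added after the data were seen. The median difference between replicates (2 minus 1, the direction used throughout) over the 9 members was 0.11 in Aff3+/- and 0.45 in Aff3-/-, while over all features it was -0.002 and -0.03.

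**Figure D3:**
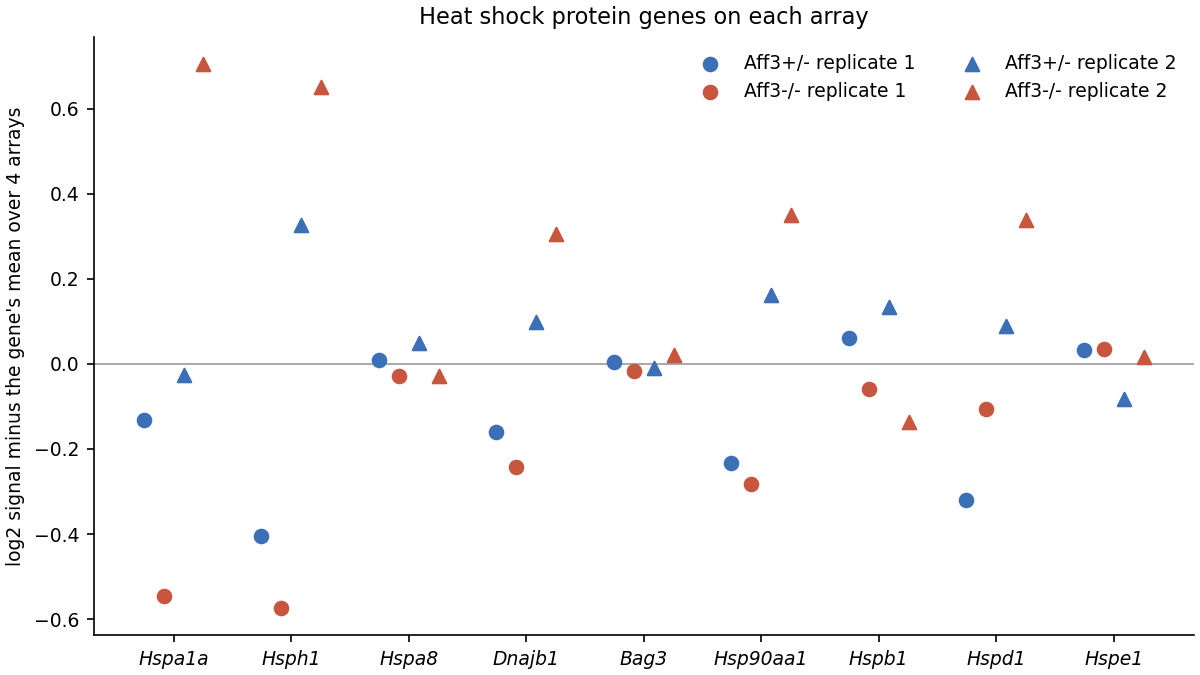
Log2 signal of the 9 measured genes on each of the 4 arrays, minus the gene's mean over the arrays, with colour for genotype and shape for replicate number. For Hspa1a, Hsph1, Dnajb1, Hsp90aa1 and Hspd1 both triangles (replicate 2) lie above both circles (replicate 1), while Hspa8, Bag3 and Hspe1 stay close to 0.

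Hsph1 (chromosome 5) encodes HSP110, which acts on HSP70 as a nucleotide exchange factor and keeps aggregated clients soluble. Its signal was 3964 and 6970 intensity units in Aff3+/- replicates 1 and 2, and 3642 and 8326 in Aff3-/- replicates 1 and 2. On the log2 scale these levels were 1.64 and 2.37, and 1.47 and 2.69. Both replicate 2 arrays were high and both replicate 1 arrays low, with the Aff3-/- values lying outside the Aff3+/- range on either side. The means were 2.00 ± 0.52 in Aff3+/- and 2.08 ± 0.87 in Aff3-/- (SD, n = 2 each), a difference of 0.08 ± 0.48 (SE) with a 95% interval of -1.20 to 1.35. That interval allows a fold from 0.436 to 2.56.

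Within each genotype Hsph1 was brighter on replicate 2 than on replicate 1, 1.66-fold in Aff3+/- and 2.34-fold in Aff3-/-. These differences, 0.73 and 1.23 on the log2 scale, lay above 98.5% and 99.6% of all features. The second Hsph1 probe is dimmer and read -0.34 and 0.54 in Aff3+/- and -0.44 and 0.79 in Aff3-/-. It gave the same order of arrays, with differences between replicates of 0.87 and 1.23 and a genotype difference of 0.08 ± 0.51. The 2 probes read the same RNA and are not replicates.

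Hspa1a (chromosome 17) encodes stress-inducible HSP70. It was dim, at 19.0 and 21.7 intensity units in Aff3+/- and 14.7 and 34.3 in Aff3-/-, where the uncorrected spot medians were 46 and 51, and 44 and 55. Its log2 levels were -6.07 and -5.96 in Aff3+/- and -6.48 and -5.23 in Aff3-/-. The lowest level called well above background on an array lay between -7.79 and -7.52. Aff3-/- replicate 2 stood above the other arrays and Aff3-/- replicate 1 below them, so the Aff3+/- range lay inside the Aff3-/- range. The genotype difference was 0.16 ± 0.43, with an interval of -0.97 to 1.29. Replicate 2 over replicate 1 was 2.38-fold in Aff3-/-, above 99.7% of all features, and 1.08-fold in Aff3+/-. The local background medians at these spots were 17 and 36.5 in Aff3+/- and 37 and 1 in Aff3-/-. Their part in the ratios was not tested. Under normexp the genotype difference was 0.11 ± 0.23. Hspa1b is a near-identical copy, and how far its transcript adds to this probe was not tested.

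Hspa8 (chromosome 9) encodes HSC70, the constitutive HSP70 that serves folding and clathrin uncoating. It read 6.77 and 6.81 in Aff3+/- and 6.73 and 6.73 in Aff3-/-. The genotypes did not overlap on this probe, but the whole range was under 0.1 and the difference was -0.06 ± 0.11 (interval -0.35 to 0.23). The other 2 probes overlapped, with differences of -0.02 ± 0.13 and 0.01 ± 0.12. Differences between replicates on the brightest probe were 0.04 and -0.0012. The second probe gave 0.15 and 0.17, with both replicate 2 arrays above both replicate 1 arrays, and the dimmest gave -0.02 and 0.11.

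Of the other HSP70 and HSP110 genes, 7 of 8 were tested, 3 were higher and 4 lower in Aff3-/-, and none passed either threshold. Their median difference was -0.02. The smallest p-values belonged to Hspa2, a testis-enriched HSP70, at -0.14 ± 0.14, and to Hspa13, a microsomal ATPase, at 0.13 ± 0.16. Both replicate 2 arrays lay above both replicate 1 arrays for 4 of the 7 and below for 1. Here and for the lists that follow, the shares over all features were 30.8% above and 33.5% below. A genotype difference above 0 was held by 45.7% of all features.

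Dnajb1 (chromosome 8) encodes HSP40, the J protein that brings clients to inducible HSP70. Its signal was 9439 and 11974 intensity units in Aff3+/- and 9222 and 13166 in Aff3-/-. On the log2 scale it read 2.89 and 3.15, and 2.81 and 3.35, again low on both replicate 1 arrays and with the Aff3+/- range inside that of Aff3-/-. The difference was 0.06 ± 0.23, with an interval of -0.54 to 0.66. Replicate 2 over replicate 1 was 1.20-fold in Aff3+/- and 1.46-fold in Aff3-/-.

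Other cytosolic J proteins numbered 17 tested of 19, with 11 higher, 6 lower and a median difference of 0.02. Dnajc2, a ribosome-bound J protein, gave 0.18 ± 0.15 and Dnajc27 gave -0.12 ± 0.11, the smallest p-values of the list, and neither passed. Replicate 2 lay above replicate 1 in both genotypes without overlap for 10 of the 17 and below for 5. Dnaja1, a J protein partner of HSC70, was picked as an example after its values were seen and read 4.71 and 5.13 in Aff3+/- and 4.59 and 5.30 in Aff3-/-.

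Hsp90aa1 (chromosome 12) encodes the inducible HSP90 alpha. Its signal was 28619 and 39901 intensity units in Aff3+/- and 28594 and 43333 in Aff3-/-. The log2 levels were 4.49 and 4.88, and 4.44 and 5.07, so the replicate 1 arrays of the genotypes lay 0.05 apart and the replicate 2 arrays 0.19 apart. The difference was 0.07 ± 0.27 (interval -0.64 to 0.78). Between replicates the ratio was 1.31-fold in Aff3+/- and 1.55-fold in Aff3-/-, above 93.1% and 97.0% of all features.

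All 21 listed genes for HSP90 and its cochaperones were tested, with 18 higher, 3 lower and a median difference of 0.03. None passed. The smallest p-values were those of Chordc1, a CHORD-domain cochaperone, at 0.13 ± 0.18, and Pih1d1, of the R2TP complex, at 0.08 ± 0.12. In 16 of the 21 both replicate 2 arrays lay above both replicate 1 arrays, and in 4 below, against 30.8% and 33.5% of all features. Examples chosen after their values were seen are Fkbp4, an immunophilin of steroid receptor complexes, with differences between replicates of 0.61 and 0.91, Stip1, which links HSP70 to HSP90, with 0.46 and 0.71, and Ahsa1, the activator of the HSP90 ATPase, with 0.44 and 0.67. Hsp90ab1, the constitutive HSP90 beta, was added after its values were seen as the partner of Hsp90aa1 and gave 0.07 and 0.05.

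Bag3 (chromosome 7) encodes an exchange factor that steers HSP70 clients to autophagy. It read 328 and 345 intensity units in Aff3+/- and 334 and 335 in Aff3-/-, and its log2 levels were -1.96 and -1.97, and -1.98 and -1.94. All 4 values lay within 0.04 and the genotypes overlapped, with a difference of 0.0046 ± 0.11 (interval -0.29 to 0.30). All 10 other HSP70 exchange factors and adaptors were tested, with 6 higher, 4 lower and a median difference of 0.02. The smallest p-values were those of Bag2, an inhibitor of the ubiquitin ligase CHIP, at 0.13 ± 0.26 and St13, the HSP70-interacting protein HIP, at 0.10 ± 0.24. In all 10 both replicate 2 arrays lay above both replicate 1 arrays.

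Hspb1 (chromosome 5) encodes the small heat shock protein HSP27, a holding chaperone that needs no ATP. It read 336 and 375 intensity units in Aff3+/- and 320 and 297 in Aff3-/-. Its log2 levels were -1.92 and -1.85, and -2.04 and -2.12, so the genotypes did not overlap. The difference was -0.19 ± 0.11, with an interval of -0.50 to 0.11 and an adjusted p of 1.00. Within replicate 1 the Aff3-/- array was lower by 0.12 and within replicate 2 by 0.27. Among other small heat shock proteins 5 of 9 were tested, with 4 higher and 1 lower and a median difference of 0.06. Hspb6 gave 0.15 ± 0.14 and Hspb11, now known as an intraflagellar transport subunit, gave -0.13 ± 0.19. None of the 5 had both replicate 2 arrays above both replicate 1 arrays, and 4 had them below.

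Hspd1 and Hspe1 (chromosome 1) encode HSP60 and HSP10, the barrel and lid of the mitochondrial chaperonin. Hspd1 read 39549 and 55734 intensity units in Aff3+/- and 47398 and 63105 in Aff3-/-. Its log2 levels were 4.96 and 5.37, and 5.17 and 5.61. Replicate 2 was the higher in both genotypes, by 0.41 and 0.45, and Aff3-/- was the higher within each number, by 0.21 and 0.25. Pooled over the numbers the genotypes overlapped, with a difference of 0.23 ± 0.23 (interval -0.37 to 0.83).

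Whether Hspe1 shared the order of Hspd1 by replicate number depended on the probe. The pair share the run of heat shock element letters printed above. Its brightest probe read 5.46 and 5.34 in Aff3+/- and 5.46 and 5.44 in Aff3-/-. The difference between replicates was -0.12 in Aff3+/- and -0.02 in Aff3-/-, and the genotype difference was 0.05 ± 0.12 (interval -0.26 to 0.36). The other 2 probes gave 0.02 ± 0.12 and -0.03 ± 0.11. The dimmest probe read 3.10 and 3.12 in Aff3+/- and 3.04 and 3.13 in Aff3-/-. There both replicate 2 arrays lay above both replicate 1 arrays, as for Hspd1, which was not so on the brightest probe. The 3 probes put the lowest value on Aff3+/- replicate 2 in 2 cases and on Aff3-/- replicate 1 in the third. Hspd1, Hspe1 and Hspa8 have processed copies elsewhere in the genome, and the share of signal from such copies was not tested.

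Mitochondrial chaperones and proteases beside the chaperonin were all tested, 13 in number, with 10 higher, 3 lower and a median difference of 0.06. In 4 of them, Lonp1, Hspa9, Dnaja3 and Clpx, both Aff3-/- arrays lay above both Aff3+/- arrays, where 8.44% of all features did so, and none lay below. Lonp1, the matrix protease LON, read 4.40 and 4.55 in Aff3+/- and 4.80 and 4.76 in Aff3-/-, a difference of 0.31 ± 0.12 (interval -0.01 to 0.63). Hspa9, the mitochondrial HSP70 mortalin, read 4.29 and 4.41, and 4.52 and 4.60, a difference of 0.21 ± 0.12. Neither passed, with an unadjusted p of 0.0559 for Lonp1 and 0.14 for Hspa9 in the limma fit and an adjusted p of 1.00 for each. The cytosolic TRiC chaperonin and prefoldin had all 15 genes tested, with 8 higher, 7 lower and a median difference of 0.0051. There Cct6a gave 0.16 ± 0.24 and Cct6b, its testis-enriched paralog, -0.25 ± 0.26.

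The heat shock factors and their binding proteins were tested for 6 of 6 genes, with 3 higher, 3 lower and a median difference of -0.01. Hsf4 gave 0.18 ± 0.32 and Hsbp1l1 -0.06 ± 0.12, the smallest p-values of the list. Hsf1, the factor for the elements printed above, was added after its values were seen and read 1.01 and 1.11 in Aff3+/- and 0.98 and 1.18 in Aff3-/-. Over all the chaperone lists 94 of 101 genes were tested, 63 were higher and 31 lower in Aff3-/-, and the median difference was 0.03 against -0.01 over all features. In 63 of the 94 both replicate 2 arrays lay above both replicate 1 arrays and in 20 below, where the shares over all features were 30.8% and 33.5%.

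**Figure D4:**
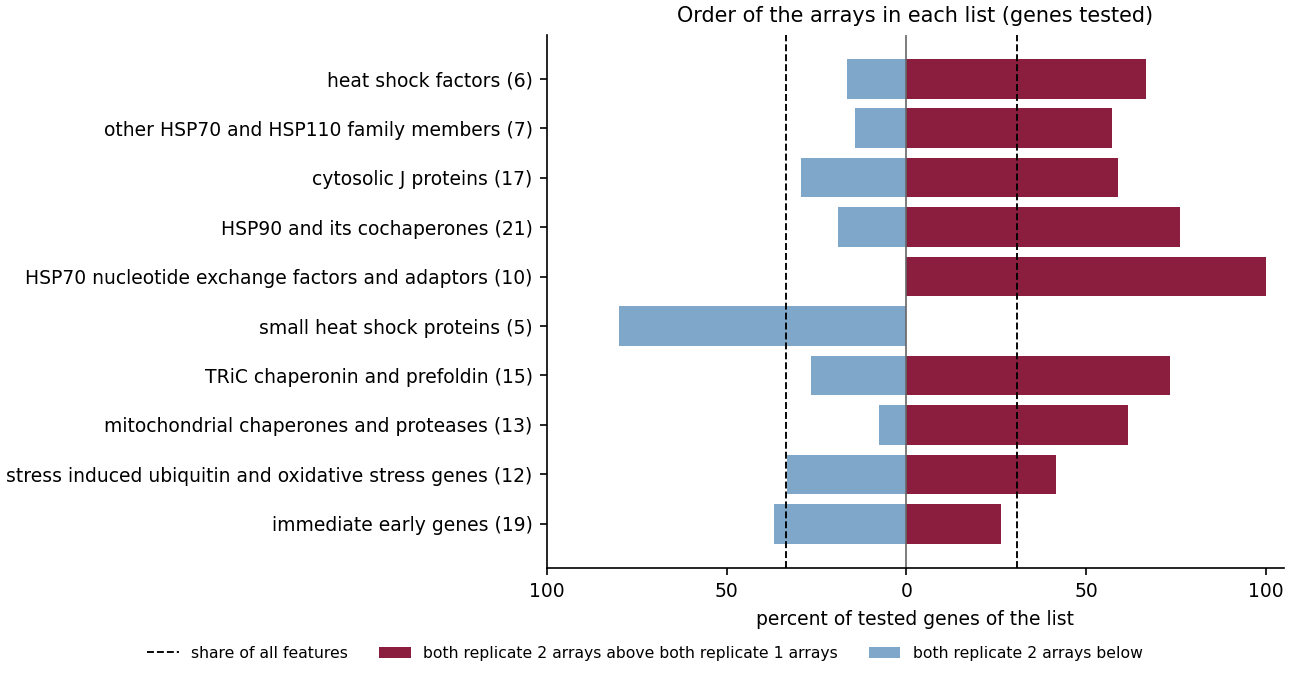
Percent of the tested genes of each list with both replicate 2 arrays above both replicate 1 arrays (right, red) or below (left, blue), with the number tested in brackets and dashed lines at the shares of all features. The bar reaches all 10 HSP70 exchange factors and adaptors on the right, while the small heat shock proteins have 4 of 5 on the left.

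Between replicates of 1 genotype the central 95% of all features lay between -0.62 and 0.61 in Aff3+/- and between -0.81 and 0.68 in Aff3-/-. Hsph1 lay outside both ranges and Hspa1a outside the second. Hsp90aa1, Dnajb1 and Hspd1 lay inside both. For the genotype difference the central 95% ran from -0.41 to 0.35, and all 9 members lay inside it.

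**Figure D5:**
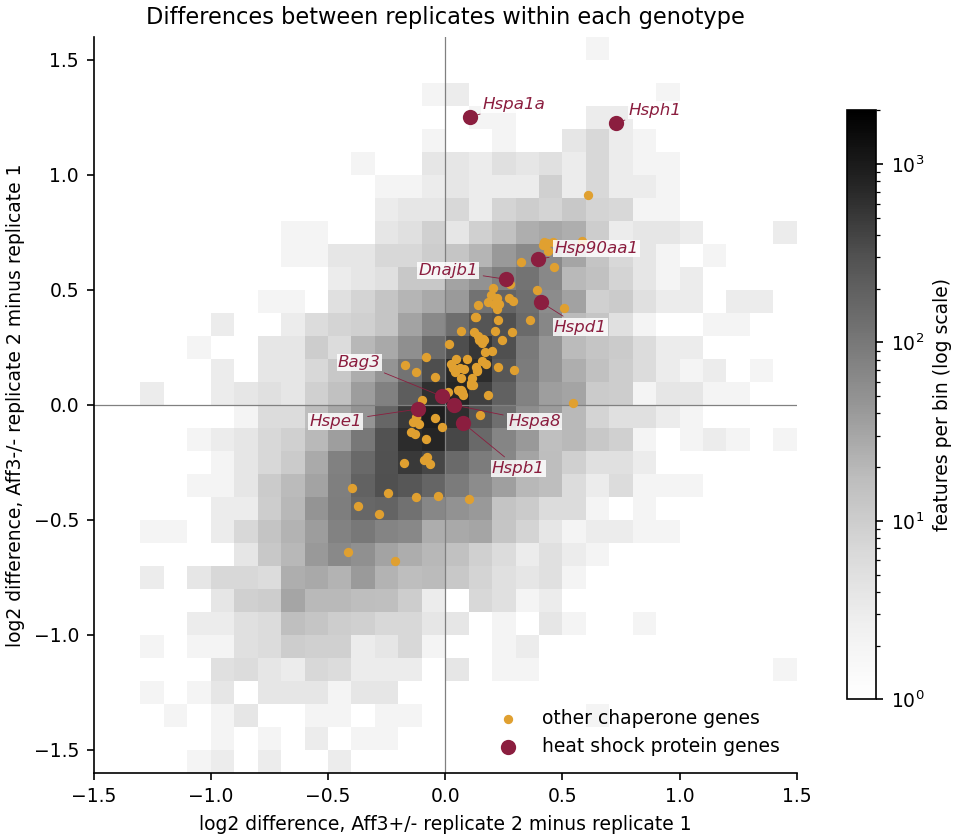
Log2 difference between replicates (2 minus 1) in Aff3+/- (horizontal) and Aff3-/- (vertical), with grey for the number of features per bin on a log scale, red points for the 9 members and yellow points for the other chaperone genes. Hsph1 lies at 0.73 and 1.23, Hspa1a at 0.11 and 1.25, and Bag3 and Hspa8 near the origin.

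Other stress genes and cell type markers also differed between the arrays. Of 12 genes of stress-induced ubiquitin and oxidative stress, 11 were higher and 1 lower in Aff3-/-, with a median difference of 0.12 and none past a threshold. In 5 of the 12 both replicate 2 arrays lay above and in 4 below. For this list and the next, the shares over all features were 45.7% higher in Aff3-/-, 30.8% with replicate 2 above and 33.5% below. Sqstm1, the autophagy receptor p62, gave 0.17 ± 0.15 and Gclm, of glutathione synthesis, gave 0.13 ± 0.14. Of the immediate early genes, which respond within minutes to stimulation or handling, 19 of 20 were tested, with 16 higher, 3 lower and a median difference of 0.09, and 5 had replicate 2 above and 7 below. Dusp2 gave 0.32 ± 0.18 and Atf3 0.20 ± 0.14. With examples chosen after their values were seen, Fos differed between replicates by 0.68 and 1.59 in Aff3+/- and Aff3-/- and Nr4a1 by 0.92 and 2.01, while Egr1 differed by -2.22 and -1.53 and Fosb by -1.33 and -1.36. The part of these shifts in the heat shock values was not tested.

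The cells carried B cell markers on every array, and all 8 of 8 were tested. Their summed level, in multiples of the array's 75th percentile, was 356 and 320 in Aff3+/- and 361 and 299 in Aff3-/-, and 7 of the 8 had both replicate 2 arrays below both replicate 1 arrays. Plasma cell markers, 5 of 5 tested, summed to 46.0 and 51.5, and 53.2 and 56.1, mostly from Xbp1. T cell markers, 7 of 8 tested, summed to 14.3 and 12.4, and 12.4 and 10.9, mostly from Lck and Cd2. Cd3e, Cd4, Lck and Cd2 were lower in Aff3-/-. The dim Cd8a (1.01 ± 0.43), Cd8b1 (0.50 ± 0.55) and Cd3d (0.07 ± 0.12) were higher. Cd8b1 read -8.03 on Aff3+/- replicate 1, below the lowest level called well above background there (-7.52). The filter kept it through Aff3-/- alone, so its direction carries no weight. Of the NK markers only Nkg7 was tested, at 1.45 and 1.38, and 1.45 and 1.20, and Ncr1, Klrb1c, Klrk1 and Eomes were not well above background. For macrophages and granulocytes 4 of 9 were tested, summing to 8.65 and 7.47, and 7.88 and 7.19, mostly from Itgam. Lyz2, S100a8, S100a9 and Mpo were not well above background. Dendritic cell markers summed to 89.5 to 103 over the 4 arrays and stromal and endothelial markers to 0.333 to 0.458. The dendritic sum was mostly Siglech, at -0.11 ± 0.12, while Flt3 gave -0.02 ± 0.21 and the dimmer Zbtb46 gave 0.52 ± 0.16. Red cell and platelet markers, 3 of 6 tested, summed to 10.6 and 7.82 in Aff3+/- and 6.59 and 5.09 in Aff3-/-, so that both Aff3-/- arrays lay below both Aff3+/- arrays. Hbb-bt, an adult beta globin picked after its values were seen, read 3.40 and 2.96, and 2.70 and 2.34, a difference of -0.66 ± 0.22 with a limma adjusted p of 1.00. Hba-a1 and Pf4, the others tested, were dim and higher in Aff3-/-, by 0.49 ± 0.70 and 2.16 ± 0.64. Pf4 read -9.80 and -8.30 in Aff3+/-, below the lowest levels called well above background there (-7.52 and -7.76). The filter kept it through Aff3-/- alone, so its direction carries no weight. The summed level is mostly Hbb-bt and does not describe the list as a whole. The part of these cells in the heat shock values was not tested, and in bulk RNA fewer cells of a type and less RNA per cell cannot be told apart. The Aff3 transcript was not analysed here, so the genotypes rest on the labels.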

How the data were processed

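Total RNA of cultured spleen B cells was measured on 4 one-colour arrays, all on 1 slide. The members and gene lists were chosen with earlier results of these data known. Per the file headers, spot values come from Agilent Feature Extraction 10.7.1.1, and the deposited processed signal is a background-subtracted intensity with no scaling between arrays. The authors' deposited value table holds log2 values for 25372 probes, with each row centred on its median. Its column medians were 0.13 and -0.03 for Aff3+/- replicates 1 and 2 and -0.04 and 0.02 for Aff3-/- replicates 1 and 2. It runs in the direction of the scanner values, and its scaling per array and choice of probes stay unknown. It lists 8 of the 9 measured members, all but Hspd1, and was used as an alternative.

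Each array held 44397 spots, and the 1377 controls were left out, as were the spots flagged as outliers (105 to 137 per array). Spots of a probe were averaged on the log2 scale after subtracting each array's 75th percentile. Symbols came from RefSeq GRCm38.p6 through transcript accessions, which named 26581 of 39429 probes. Promoters came from RefSeq GRCm38.p6 too, while the array design cites another build, so no probe coordinates are given. A feature was kept if both arrays of either genotype called it well above background, and the brightest probe stood for its gene. The fit used limma 3.58.1 (R 4.3.3, lmFit and eBayes, two-sided, Benjamini-Hochberg over 20636 features, threshold 0.05, 2 residual degrees of freedom). The fit was tested on simulated data in which the arrays were drawn independently of each other. That test does not cover the correlation of same-numbered arrays given below. Values after ± are standard errors unless marked SD. Intervals are 95% intervals of the moderated fit, and the number of arrays limits their precision. Genes named were every member and, of each list, the 2 of smallest p, and further examples are marked in the text. Alternatives were normexp (offset 50), quantile normalization, the deposited values, no filter, the mean of a gene's probes, each probe on its own, a variance trend, a block for the replicate number, and all sets of 3 arrays. The mean signal was not used here, so normexp took the median signal. No block for slide or scan was fitted, since 1 slide held all arrays.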

Additional observations from a re-analysis of the deposited data

How the results depend on the processing

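No member passed the adjusted threshold under any setting tried. Outside the settings that leave out an array, no member's difference changed sign on its brightest probe or on the mean of its probes. Taken alone, the dimmest Hspe1 probe gave -0.03 and the dimmest Hspa8 probe 0.01. The brightest probes of these genes gave 0.05 and -0.06. The share of all features higher in Aff3-/- moved with the processing, from 45.7% in the reported fit. It was 52.2% under normexp, 50.6% under quantile normalization and 38.9% without the filter, with 7 of 9 members higher in each. In the deposited values it was 18.7%, with 6 of 8 members higher. Members without overlap between genotypes were 1 of 9, not 2, under normexp (21.8% of all features) and under the mean of a gene's probes (19.9%), against 19.6% of all features in the reported fit. Those lowest on Aff3-/- replicate 2 were 1, not 2, under quantile normalization and in the deposited values. The deposited values lack Hspd1, the 1 member lowest on Aff3+/- replicate 1 in the reported fit, and 0 of their 8 were lowest there. Both replicate 2 arrays lay above both replicate 1 arrays for 5 members under normexp (28.4% of all features) and 7 under quantile normalization (32.5%). In the deposited values they did so for 4 of 8 (23.2%), without Hspd1, which is among the 5 of the reported fit. This ordering was chosen after seeing the data.

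The labels give both genotypes the same replicate numbers but do not say that a number marks a shared mouse, litter or day, and 2 numbers are too few to show it. Deviations of same-numbered arrays correlated at 0.56 across features, which are not independent. With the replicate block, 1 member, Hspd1, fell under the unadjusted threshold, at a difference of 0.23 ± 0.07 and a limma adjusted p of 0.69. In the same fit 7.05% of all features fell under it.

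Leaving out 1 array in turn leaves a lone array, assumed to vary like the other genotype. The members higher in Aff3-/- then ranged from 2 to 7 (45.4% to 48.7% of all features), those under the unadjusted threshold from 0 to 1 (1.45% to 4.71%), and the median difference from -0.15 to 0.34. Those without overlap ranged from 3 to 8, but 1 array against 2 leaves 45.5% to 73.1% of all features without overlap, so these counts cannot be set beside those from 4 arrays. The member under the unadjusted threshold was Hspa1a, at 0.78 without Aff3-/- replicate 1 and -0.47 without Aff3-/- replicate 2 (limma adjusted p = 0.72 and 1.00). Hsph1 ranged from -0.54 to 0.69, Hspa1a from -0.47 to 0.78, Hsp90aa1 from -0.25 to 0.39, Dnajb1 from -0.21 to 0.34, Bag3 from -0.014 to 0.023 and Hspe1 from -0.0074 to 0.11, all crossing 0. Hspd1 (0.0082 to 0.45), Hspa8 (-0.08 to -0.04) and Hspb1 (-0.23 to -0.15) kept their sign. The cause was not tested. Hspa1a was well above background on all 4 arrays, at 14.7 to 34.3 intensity units, where the local background medians ranged from 1 to 37.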
